A study of Sus scrofa with 12 samples.

Results

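SOCS3, STAT3, the receptors of the interleukin 6 family and related feedback genes were examined in RNA sequencing of newborn piglet striatum, a deep forebrain region. The set names 10 genes, of which 8 were found by name in the authors' deposited table. SOCS3 has no name there and was found through its Ensembl ID in a reference table of pig gene names, and SOCS2 has no row of its own, which leaves 9 of the 25880 genes counted. Sham piglets (n = 6) were newborn pigs kept anaesthetised with 4% isoflurane. Piglets of the deep hypothermic circulatory arrest group (DHCA, n = 6) also received 4% isoflurane and were then opened by sternotomy, put on cardiopulmonary bypass, cooled to 18 °C, kept in arrest for 30 min, brought back to 37 °C while on bypass, and studied after 6 h of recovery. The comparison therefore covers surgery, bypass, cooling, arrest and recovery together, and these cannot be told apart. No recovery time is recorded for sham. Each numbered sample was taken as a different piglet, so p-values measure the spread between libraries, technical differences included.

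Cytokines of the interleukin 6 family act through a receptor chain of their own and a shared signalling chain, IL6ST. IL6R binds interleukin 6, OSMR binds oncostatin M and LIFR binds leukaemia inhibitory factor. The assembled receptor activates Janus kinases, which phosphorylate the transcription factor STAT3. STAT3 induces SOCS3, which binds the receptor and kinase and stops the signal. SOCS1 and CISH are relatives of SOCS3 that also damp cytokine signals. BCL3 is a nuclear relative of the inhibitors of NF-kB that is also reported as a STAT3 target. In the injured brain this pathway is best known from reactive astrocytes.

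Some libraries stood apart. Library totals ranged from 1377809 to 12933536 counts, and the shallowest were Sham 5 and Sham 1, with 2515816 counts in the latter. Both also had the lowest shares of mitochondrial counts, 4.01% in Sham 1 and 7.30% in Sham 5, with DHCA 2 next at 10.6%. Their median correlations with the other libraries were the lowest too, 0.859 in Sham 1 and 0.903 in Sham 5, with Sham 4 next at 0.913. Sham 4 had the lowest summed level of 12 spiny projection neuron markers, 294 CPM (counts scaled to library size), where the remaining sham libraries had 3817 to 7514 CPM and the DHCA libraries 3097 to 6076 CPM. Summed markers of red cells ran from 37.2 to 242 CPM in sham and from 26.9 to 67.4 CPM in DHCA (exact permutation p = 0.0108, adjusted over 11 marker lists p = 0.119). Sham 4 also had the highest sum of 9 cortical neuron markers, 1224 CPM, against 24.6 to 93.2 CPM in the other 11 libraries. Of 14004 genes tested, 26 were called by edgeR (0.186%).

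SOCS3 was the one member called. Its level after DHCA was 8.21-fold that in sham (log2 fold change 3.04, SE 0.52, 95% interval 1.91 to 4.16, edgeR adjusted p = 0.0341). The gene lies on chromosome 12 (ENSSSCG00000036956, 3643929 to 3647009, plus strand, Sscrofa11.1), and the exons counted lie wholly within the RefSeq SOCS3 gene of the same assembly. In sham its level ran from 1.14 to 8.57 CPM with a median of 2.17. In DHCA it ran from 12.3 to 64.6 CPM with a median of 24.5. All 6 DHCA libraries lay above all 6 sham libraries. Among sham, Sham 2 (8.57 CPM) and Sham 1 (5.82 CPM) stood above the other 4, which had at most 2.29 CPM. Among DHCA, DHCA 4 (64.6 CPM) and DHCA 2 (41.8 CPM) were highest and DHCA 5 (12.3 CPM) was lowest.

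The sham values rest on few reads. SOCS3 had 3 counts in Sham 5 and 8 in Sham 4, up to 103 in Sham 2, and from 110 to 481 in the DHCA libraries. The call held in 3 of 12 fits that left out 1 library, namely Sham 1, Sham 2 or DHCA 5, and adjusted p by edgeR was 0.112 without Sham 3, 0.11 without Sham 5, 0.105 without DHCA 2, 0.0881 without Sham 4, 0.0772 without DHCA 4, 0.0748 without Sham 6, 0.0667 without DHCA 3, 0.0535 without DHCA 6 and 0.0533 without DHCA 1. The fold change stayed between 2.67 and 3.65 on the log2 scale in these 12 fits. Without Sham 1, Sham 4 and Sham 5 it was 2.79 (edgeR adjusted p = 0.304). SOCS3 is also expressed by blood leucocytes. Summed blood leucocyte markers, 12 of 14 listed genes with 0 of the 12 at 0, ran from 9.52 to 37.997 CPM in sham (median 13.9) and from 21.8 to 35.9 CPM in DHCA (median 30.1), with Sham 1 highest of all (exact permutation p = 0.0563, adjusted over 11 marker lists p = 0.310). Among DHCA the sums were highest in DHCA 2 (35.9 CPM) and DHCA 4 (34.4 CPM), both also highest for SOCS3. The lowest DHCA sum was that of DHCA 6 (21.8 CPM), while DHCA 5, lowest for SOCS3, had 28.9 CPM. In Sham 2, the sham library highest for SOCS3, the sum was 13.7 CPM. The part of leucocytes in the SOCS3 values was not tested. Summed markers of astrocytes had overlapping ranges, 5996 to 6818 CPM in sham and 5408 to 7855 CPM in DHCA.

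**Figure D1:**
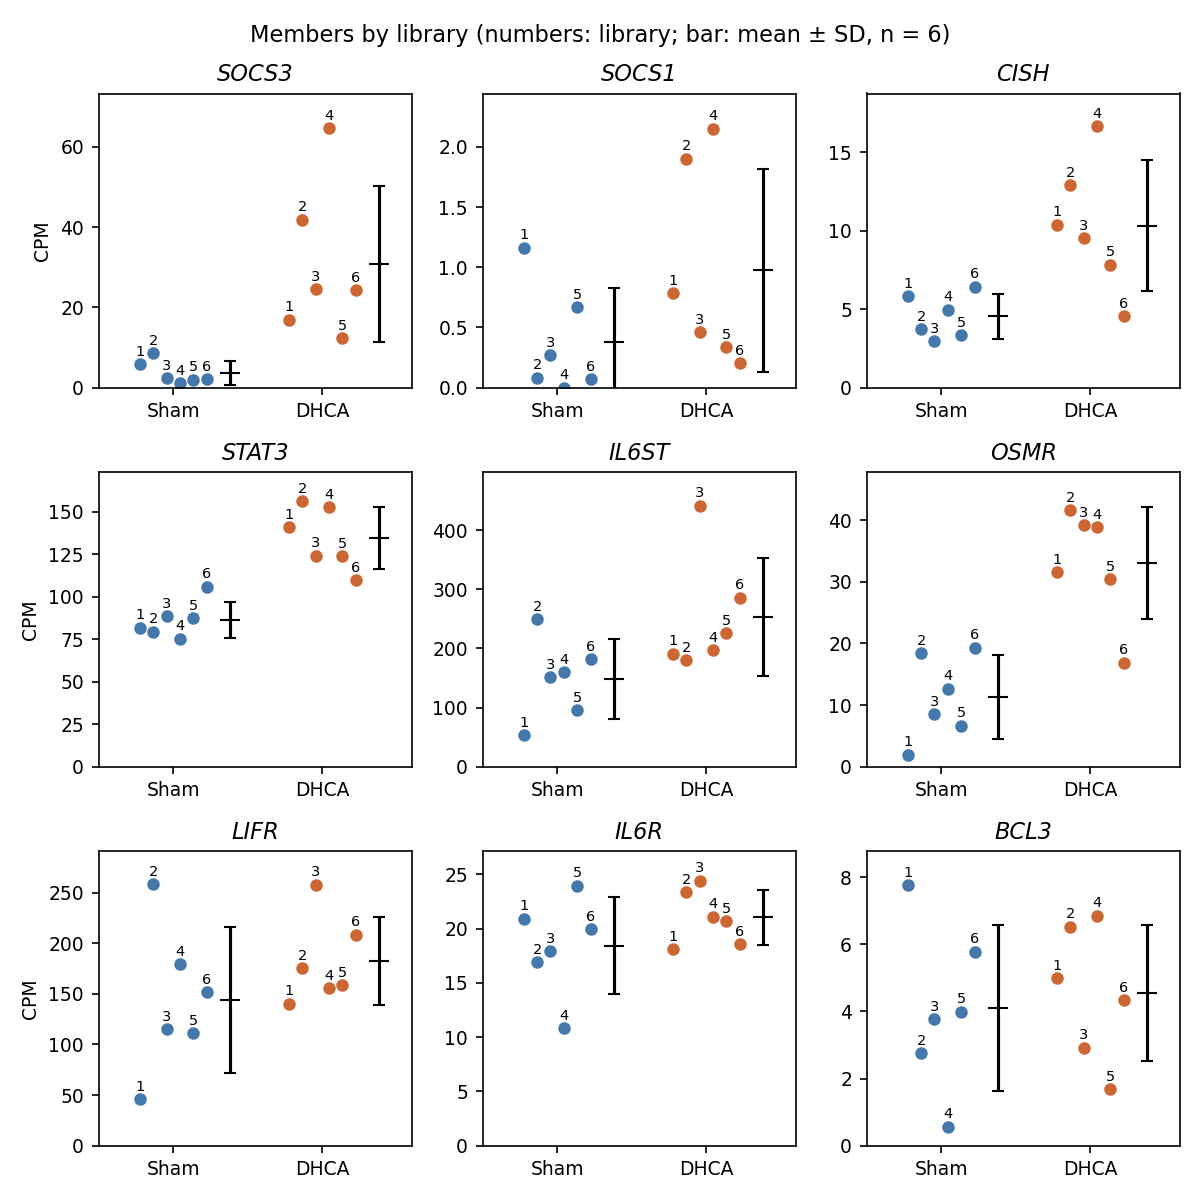
Levels (CPM, counts scaled to library size, linear axes) of the 9 members in each of the 12 libraries, with points numbered by library and a bar for the mean ± SD (n = 6 per group). The DHCA points lie above all sham points for SOCS3 and STAT3, while the groups overlap for the other 7 members.

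SOCS1 and CISH were at low levels. SOCS1 had 0 to 3 counts in each sham library and 1 to 16 in each DHCA library, 8 against 45 counts in all, and did not pass the filter on low counts. The 2 highest DHCA libraries, DHCA 4 with 16 counts and DHCA 2 with 14, were also the highest for SOCS3. With no filter its log2 fold change was 2.10 (SE 0.81, edgeR adjusted p = 0.549). CISH ran from 2.97 to 6.44 CPM in sham (median 4.36) and from 4.53 to 16.7 CPM in DHCA (median 9.96). DHCA 6 (4.53 CPM) lay among the sham values and the other 5 DHCA libraries above all of them. The fitted difference of CISH was 1.17 (SE 0.30, 95% interval 0.52 to 1.82, edgeR adjusted p = 0.192). Of the 6400 exon bases counted as CISH (chromosome 13, 33081637 to 33125598, minus strand), 765 lie within the RefSeq CISH gene and 3270 within a RefSeq long noncoding RNA gene, so the counts cannot be assigned to the CISH messenger RNA alone.

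STAT3, the transcription factor of the pathway, differed less between groups than SOCS3. Its mean level per kb of exon was above that of SOCS3 in both groups, with overlapping ranges in DHCA. Its level ran from 75.3 to 106 CPM in sham (median 84.5) and from 110 to 156 CPM in DHCA (median 132), so that every DHCA library lay above every sham library. The highest sham library, Sham 6 (106 CPM), came close to the lowest DHCA library, DHCA 6 (110 CPM). The fitted difference was 1.56-fold (log2 fold change 0.64, SE 0.14, 95% interval 0.33 to 0.95), and adjusted p over all genes was 0.123 by edgeR. Groups did not overlap for 2 of 9 members, SOCS3 and STAT3, both higher in DHCA, against 0.993% of the genes tested in either direction and 0.678% with DHCA higher. Of the 8225 exon bases of the STAT3 model (ENSSSCG00000017403, chromosome 12, 20407189 to 20472993, plus strand), 957 overlap exons of STAT5A on the opposite strand, and counting did not use strand.

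OSMR, the oncostatin M receptor chain, had a larger fitted difference than IL6ST, LIFR or IL6R. It ran from 1.94 to 19.3 CPM in sham (median 10.6) and from 16.9 to 41.6 CPM in DHCA (median 35.2). DHCA 6 (16.9 CPM) lay within the sham range, below Sham 2 and Sham 6, and the other 5 DHCA libraries lay above all sham values. The log2 fold change was 1.48 (SE 0.38, 95% interval 0.66 to 2.30, edgeR adjusted p = 0.188). Of the 5527 exon bases of the OSMR model, 5192 lie within RefSeq OSMR and 3061 within a long noncoding RNA gene that overlaps it. In the STAT3 and BCL3 models, 2029 of 8225 and 526 of 1890 exon bases lie outside any RefSeq gene. Levels per kb of OSMR, IL6ST, LIFR, CISH, STAT3 and BCL3 depend on these models. Sham 1 held 5 OSMR counts and Sham 5 held 10. Without both, the log2 fold change was 1.16 (SE 0.28, edgeR adjusted p = 0.198).

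IL6ST, the shared signalling chain, ran from 53.5 to 249 CPM in sham (median 155) and from 181 to 441 CPM in DHCA (median 211). Of the 7092 exon bases of its model, 7083 lie within RefSeq IL6ST and 7092 within a long noncoding RNA gene that overlaps it. DHCA 3 (441 CPM) and DHCA 6 (286 CPM) were the 2 libraries above all of sham, and Sham 2 (249 CPM) lay above the other 4 DHCA libraries. The log2 fold change was 0.77 (SE 0.33, 95% interval 0.062 to 1.47, edgeR adjusted p = 0.579). It was 0.45 (SE 0.27) without Sham 1 and Sham 5, 0.38 without Sham 4 as well, and 0.52 without DHCA 3. The lowest sham values were those of Sham 1 (53.5 CPM) and Sham 5 (95.9 CPM), the shallowest libraries.

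LIFR, the leukaemia inhibitory factor receptor, was counted over a model whose 10126 exon bases fall in 3 RefSeq genes (7279, 2546 and 263 bases), none with the symbol LIFR. It ran from 45.8 to 259 CPM in sham (median 134) and from 140 to 258 CPM in DHCA (median 167), and no DHCA library lay above Sham 2. Its log2 fold change was 0.34 (SE 0.31, 95% interval -0.33 to 1.01, edgeR adjusted p = 0.822) and 0.051 without Sham 1 and Sham 5. It was 0.60 without Sham 2. IL6R, the interleukin 6 receptor, ran from 10.8 to 24.0 CPM in sham (median 19.0) and from 18.1 to 24.4 CPM in DHCA (median 20.9). Its log2 fold change was 0.21 (SE 0.19, 95% interval -0.19 to 0.61, edgeR adjusted p = 0.812). The lowest IL6R value, 10.8 CPM, was that of Sham 4, and the log2 fold change was 0.085 without it and 0.35 without Sham 1 and Sham 5.

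IL6ST and LIFR were high in the same libraries. Sham 2 was the highest sham library and DHCA 3 the highest DHCA library for both genes, and Sham 1 was the lowest for both. Sham 2 and DHCA 3 also had the highest summed levels of 7 oligodendrocyte markers in their groups, 34278 and 66756 CPM. The next sums were 28922 CPM in Sham 5, 26315 CPM in Sham 1 and 26124 CPM in DHCA 2. Sham 1 was lowest for both receptors, and DHCA 6, the second highest DHCA library for both, had a sum of 11843 CPM. The part of these cells in the receptor levels was not tested. In bulk tissue, fewer cells of a type and less RNA per cell cannot be told apart.

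BCL3 ran from 0.569 to 7.75 CPM in sham (median 3.88) and from 1.68 to 6.85 CPM in DHCA (median 4.66), and the groups overlapped throughout. The highest value of all 12 was that of Sham 1, and the lowest was that of Sham 4, with 4 counts. The log2 fold change was 0.20 (SE 0.47, 95% interval -0.81 to 1.21, edgeR adjusted p = 0.926), -0.060 without Sham 4 and 0.47 without Sham 1 and Sham 5.

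**Figure D2:**
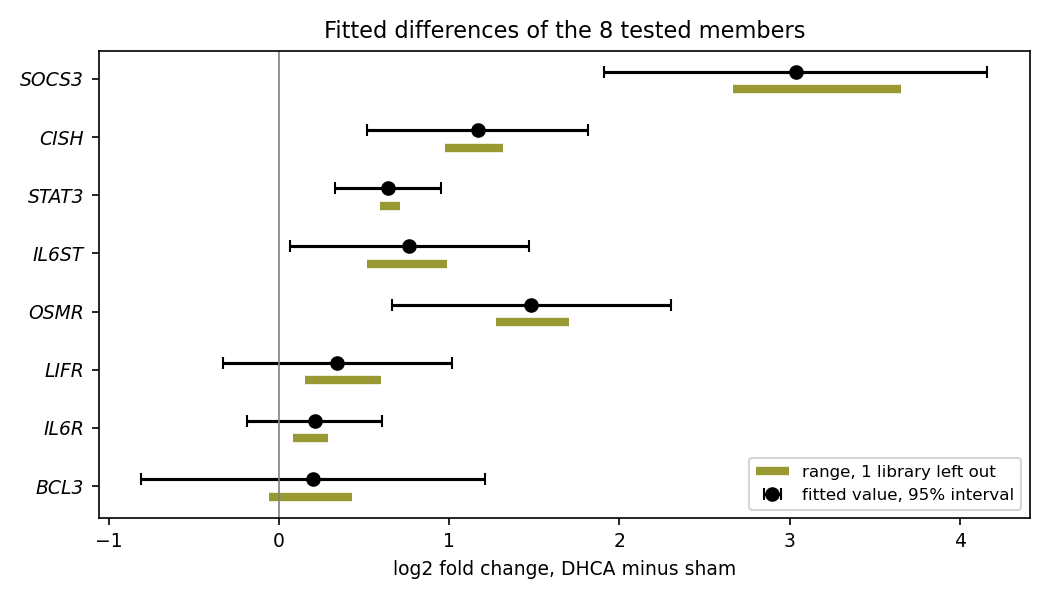
Fitted log2 fold change (DHCA minus sham, edgeR) of the 8 tested members with its 95% interval (black), and the range over the 12 fits that left out 1 library (olive). SOCS3 lies at 3.04 and is the one member called after adjustment over all genes, while the intervals of LIFR, IL6R and BCL3 include 0.

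Across the 8 members tested, 1 was called higher by edgeR, where 0.136% of all genes were. All 8 had a fold change above 0, against 49.5% of all genes, and 5 (SOCS3, STAT3, OSMR, CISH and IL6ST) had an unadjusted p under 0.05 with DHCA higher, against 3.43% of all genes with DHCA higher and 7.9% in either direction. Their median log2 fold change was 0.70, against -0.0030 over all genes tested. The members were chosen with results of these data known, so these counts describe the set and support nothing further. In the authors' deposited table, 4 of the 9 had an adjusted p under 0.05, where 1.29% of its genes with an adjusted p did. The test statistic in the authors' deposited table has the opposite sign to the fold change for all 9, and the fold change, as printed there, was read as DHCA minus sham. That table gives log2 fold changes of 3.16 for SOCS3 (adjusted p = 3.86e-07), 0.64 for STAT3 (0.000458), 1.61 for OSMR (0.00272) and 1.21 for CISH (0.0210). The DESeq2 Wald test computed here called the same 4 members, where it called 1.1% of all genes, and a weighted limma-voom fit called SOCS3, STAT3 and OSMR, where it called 1.48%.

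Levels of different genes were compared per kb of exon, as TMM-scaled CPM divided by exon length. In sham the order was IL6ST (20.9 ± 9.60, SD, n = 6), LIFR (14.2 ± 7.12), STAT3 (10.5 ± 1.31), IL6R (3.28 ± 0.796), BCL3 (2.17 ± 1.31), OSMR (2.03 ± 1.24), SOCS3 (1.44 ± 1.15), CISH (0.710 ± 0.221) and SOCS1 (0.452 ± 0.546). Between STAT3 and IL6R the ranges of the sham libraries were apart, and every other pair of neighbours overlapped. In DHCA, SOCS3 stood in the fourth place at 12.2 ± 7.68 (SD, n = 6), after IL6ST (35.8 ± 14.03), LIFR (18.0 ± 4.31) and STAT3 (16.4 ± 2.22) and before OSMR (5.99 ± 1.65) and IL6R (3.75 ± 0.448). All neighbours in DHCA had overlapping ranges, and SOCS3 exceeded OSMR in 5 of 6 libraries. BCL3 (2.41 ± 1.07), CISH (1.61 ± 0.653) and SOCS1 (1.17 ± 1.01) followed.

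**Figure D3:**
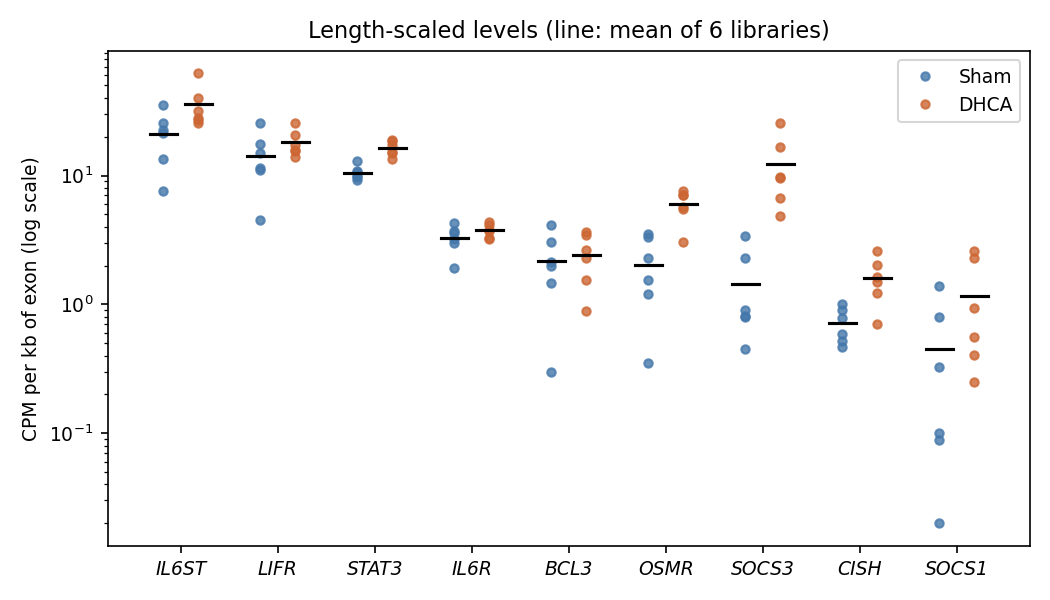
CPM per kb of exon (log axis) of the 9 members in each library, sham in blue and DHCA in orange, with a line at the mean of 6 libraries; genes are ordered by the sham mean, and the value of 0 for SOCS1 in Sham 4 is drawn at the bottom of the axis. SOCS3 has the seventh place in sham (1.44) and the fourth in DHCA (12.2).

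Ratios within a library do not depend on the scaling between libraries. They were computed after the values had been seen and are given with no test. The ratio of OSMR to LIFR per kb ran from 0.0776 to 0.233 in sham (median 0.130) and from 0.148 to 0.457 in DHCA (median 0.382), and 5 of 6 DHCA libraries lay above all of sham. DHCA 6 was the exception at 0.148. The ratio of LIFR to IL6ST ran from 0.535 to 0.812 in sham (median 0.663) and from 0.410 to 0.679 in DHCA (median 0.513), with overlapping groups. The ratio of SOCS3 to STAT3 had a median of 0.0795 in sham and 0.683 in DHCA. In Sham 2 it was 0.352, above DHCA 5 (0.324), and the other 5 sham libraries had at most 0.232. In DHCA 4, SOCS3 exceeded STAT3 per kb, with a ratio of 1.38.

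**Figure D4:**
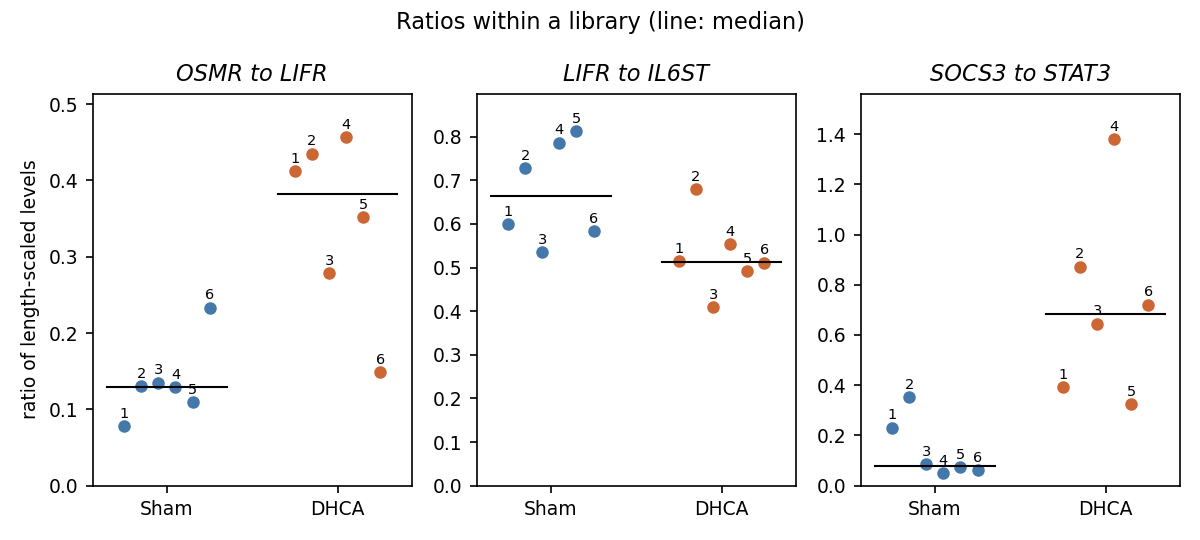
Ratios of length-scaled levels within each library (linear axes), with points numbered by library and a line at the median of 6. OSMR to LIFR is higher in 5 of 6 DHCA libraries than in any sham library, LIFR to IL6ST overlaps between groups, and SOCS3 to STAT3 has medians of 0.0795 and 0.683.

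The DHCA libraries differed among themselves. DHCA 2 and DHCA 4 were the 2 highest DHCA libraries for 5 of 9 members, namely SOCS3, SOCS1, CISH, STAT3 and BCL3, while DHCA 3 was highest for IL6ST, LIFR and IL6R. The share of all genes highest in DHCA 2 and DHCA 4 was not computed. Blood leucocyte sums, given beside SOCS3, were also highest in DHCA 2 and DHCA 4 among DHCA, and the part of these cells was not tested. Within the 6 DHCA libraries, SOCS3 and BCL3 had the largest correlation of the 14 pairs examined (Pearson r = 0.80, exact permutation p = 0.0569, adjusted p = 0.797; Spearman rho = 0.77, exact permutation p = 0.103, adjusted p = 0.613). Without the 2 libraries farthest from the median of SOCS3 (DHCA 4 and DHCA 5), r was 0.43. Within DHCA, r with SOCS3 was 0.61 for CISH and 0.60 for STAT3 (exact permutation p = 0.189 and 0.210, adjusted p = 0.95 for both), and within sham it was between -0.22 and 0.47 for the 7 other tested members. None of the 14 pairs passed the exact permutation test at 0.05, before or after adjustment, in groups of 6.

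After removal of the group means, the 5 named genes most like SOCS3 over the 12 libraries were TRIP10 (Pearson r = 0.87), TIFA (0.87), STX11 (0.82), HSPB8 (0.81) and RUNX1 (0.81), out of 12735 named genes at 1 CPM or more. These values describe likeness and carry no test, and all genes share the same 12 libraries and their depth. STX11, a syntaxin of immune cells, had mean levels of 1.01 CPM (sham) and 5.70 CPM (DHCA) (log2 fold change 2.31, SE 0.56, edgeR adjusted p = 0.159). Without Sham 2, which held 3.16 CPM against at most 0.776 CPM in the other sham libraries, STX11 was called by edgeR (3.34, adjusted p = 0.0158). With all 12 libraries it was called by the DESeq2 Wald test (2.37, adjusted p = 0.0133) and the weighted limma-voom fit (2.68, adjusted p = 0.0351). TIFA, an adaptor of NF-kB signalling, was at 1.21 and 3.94 CPM (1.66, SE 0.49, adjusted p = 0.300). HSPB8, a small heat shock protein gene, had mean levels of 71.0 and 74.8 CPM. Of the members, BCL3 was the most like SOCS3 by this measure (r = 0.58, in place 162).

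Ligands of the family other than CLCF1 were near the limit of detection. Of 9 ligand genes with a row, only CLCF1 passed the filter on low counts, with a log2 fold change of -0.065 (SE 0.26, edgeR adjusted p = 0.959), or 0.089 without Sham 1 and Sham 5. IL6 had 40 counts over the 6 sham libraries and 40 over the 6 DHCA libraries, between 0 and 12 in any one. OSM, the ligand of OSMR, had 0 to 5 counts in each sham library and 4 to 8 in each DHCA library, 14 against 32 in all. LIF had 21 counts in sham, 10 of them in Sham 1, and 5 in DHCA. IL6, OSM and LIF did not pass the filter and were not tested.

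The wider pathway was described by 9 gene lists with 84 tested genes, of which SOCS3 was the one called by edgeR, against 0.186% of all genes. The DESeq2 Wald test and the weighted limma-voom fit each called 10 genes of these lists, where they called 1.1% and 1.48% of all genes. Of the 84, 64 had a fold change above 0, against 49.5% of all genes, and the median was 0.21. With the unadjusted p under 0.05, DHCA was higher in 21 and lower in 3, against 3.43% and 4.47% of all genes. The 84 include the 8 tested members, 5 of which are among the 21. The lists were chosen with earlier results of these data known, so these counts describe the lists and support nothing further. Among 8 receptors of the family, 2 of the 21 (OSMR and IL6ST) and 1 of the 3 were found. The lower one was IL27RA, the interleukin 27 receptor, with 6.11 ± 1.47 CPM (sham) and 3.92 ± 0.801 CPM (DHCA; SD, n = 6; log2 fold change -0.60, SE 0.23, edgeR adjusted p = 0.488).

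Of the 4 Janus kinases, which carry the signal from receptor to STAT, 0 were called by edgeR, against 0.186% of all genes. JAK2 had 25.5 ± 9.80 CPM (sham) and 45.3 ± 9.50 CPM (DHCA; SD, n = 6; log2 fold change 0.80, SE 0.25, edgeR adjusted p = 0.354), and JAK3 had 0.67 (SE 0.22, adjusted p = 0.369). JAK3 was called by the weighted limma-voom fit (0.86, adjusted p = 0.0232), and JAK2 had 0.44 without Sham 1, Sham 4 and Sham 5. Both JAK2 and JAK3 had an unadjusted p under 0.05 with DHCA higher, against 3.43% of all genes. TYK2 did not reach that threshold, with -0.30 (SE 0.16), or -0.16 without Sham 1 and Sham 5. Among the STAT genes, 1 had groups without overlap, STAT3 as given above, against 0.993% of all genes in either direction. STAT5A, which acts downstream of growth hormone and prolactin receptors, had 0.61 (SE 0.25, edgeR adjusted p = 0.535).

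Of the 6 SOCS family genes tested, SOCS3 and CISH are described above, and the remaining 4 had log2 fold changes between -0.20 and 0.26, with SOCS7 (-0.20, SE 0.20) the next by p. Without Sham 1, Sham 4 and Sham 5, SOCS7 had 0.10. Of 12 other inhibitors of the pathway, 0 were called by edgeR, against 0.186% of all genes. PTPN1, a phosphatase that acts on Janus kinases, had 0.62 (SE 0.20, edgeR adjusted p = 0.354), and PTPN6, a phosphatase of blood cells and microglia, had -0.74 (SE 0.23, adjusted p = 0.354). PTPN6 was called by the weighted limma-voom fit (-0.91, adjusted p = 0.0428). PIAS4 had -0.35 (SE 0.25), or 0.091 without Sham 1 and Sham 5. Summed microglial markers ran from 178 to 357 CPM in sham and from 172 to 302 CPM in DHCA over 9 of 10 listed genes, and their part in the PTPN6 value was not tested.

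Of 13 other cytokine receptors tested, 11 had a fold change above 0 (49.5% of all genes did). None was called by edgeR, against 0.186% of all genes. CSF2RB, the shared chain of receptors for granulocyte-macrophage colony-stimulating factor and related cytokines, ran from 2.56 to 7.10 CPM in sham and from 7.37 to 24.0 CPM in DHCA, without overlap, as 0.678% of all genes were with DHCA higher (log2 fold change 1.38, SE 0.35, edgeR adjusted p = 0.179). The DESeq2 Wald test called CSF2RB (adjusted p = 0.0253). IL4R had 0.69 (SE 0.38) and CSF3R 0.56 (SE 0.37). CSF2RB is expressed by blood and microglial cells. The leucocyte marker sums given beside SOCS3 bear on it too, and their part in its values was not tested.

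Of 28 tested genes reported as STAT3 targets, 22 had a fold change above 0 (49.5% of all genes did), with a median of 0.37. SOCS3 was the one called by edgeR, against 0.186% of all genes. Groups did not overlap for 5, all higher in DHCA, against 0.678% of all genes. Besides SOCS3 and STAT3 these were CEBPD, TIMP1 and MCL1. CEBPD, a transcription factor of the acute-phase response, ran from 1.21 to 8.32 CPM in sham and from 10.4 to 39.9 CPM in DHCA (log2 fold change 1.99, SE 0.47, edgeR adjusted p = 0.140), with DHCA 4 and DHCA 2 highest, as for SOCS3. TIMP1, an inhibitor of metalloproteinases, ran from 1.33 to 6.11 CPM and from 7.05 to 21.3 CPM (1.43, SE 0.34, adjusted p = 0.140). MCL1, a survival gene, ran from 65.2 to 107 CPM and from 124 to 168 CPM (0.70, SE 0.16, adjusted p = 0.116). With the unadjusted p under 0.05, DHCA was higher for 10 and lower for 1, against 3.43% and 4.47% of all genes. Those not yet given, named after their values were seen, were CEBPB (1.51, SE 0.34), PIM1 (1.01, SE 0.29), ICAM1 (1.19, SE 0.52) and HIF1A (0.83, SE 0.32) among the 10, and CCND1, a cyclin of the G1 phase, as the lower one (-0.81, SE 0.21). With all 12 libraries, the DESeq2 Wald test called CEBPB (adjusted p = 0.00510), CEBPD (0.00546), MCL1 (0.00144), TIMP1 (0.00795) and CCND1 (0.0348), and the weighted limma-voom fit called CEBPB (0.0164), CEBPD (0.0170) and MCL1 (0.0394). CEBPB was called by edgeR without Sham 1 (1.74, adjusted p = 0.0490) and ICAM1 without Sham 2 (2.03, adjusted p = 0.0497). Neither was called in any other fit that left out 1 library (lowest edgeR adjusted p = 0.102 for CEBPB and 0.611 for ICAM1). Without Sham 1, Sham 4 and Sham 5, ICAM1 had 0.59 and HIF1A 0.44. Many of these genes also respond to other signals, and the list includes 4 members of the set itself besides SOCS3. It was chosen with earlier results of these data known, so its counts describe the list and support nothing further.

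Of 11 NF-kB genes and inhibitors of NF-kB, BCL3 included, 0 were called by edgeR, against 0.186% of all genes. An unadjusted p under 0.05 was found for 3, all with DHCA higher, against 3.43% of all genes with DHCA higher. NFKBIZ, like BCL3 a nuclear member of the inhibitor family, had 16.5 ± 6.37 CPM (sham) and 27.0 ± 8.07 CPM (DHCA; SD, n = 6; log2 fold change 0.70, SE 0.26, edgeR adjusted p = 0.469). RELB had 0.64 (SE 0.28) and NFKB2, the precursor of a DNA-binding subunit that BCL3 can bind, had 0.58 (SE 0.24). Sham 1 was within the DHCA range for NFKBIZ (26.8 CPM) and NFKB2 (10.5 CPM).

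**Figure D5:**
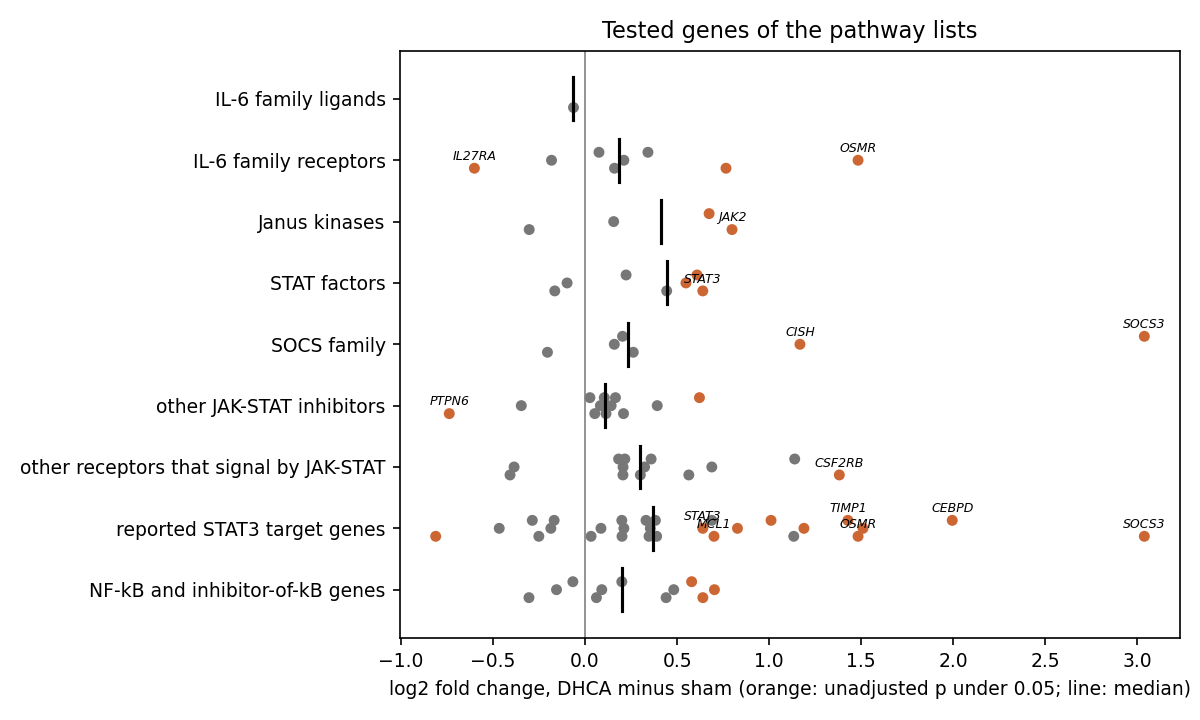
Fitted log2 fold change (DHCA minus sham) of every tested gene in the 9 lists, 1 point per gene, orange where the unadjusted p was under 0.05, with a line at the median of each list. SOCS3 at 3.04 lies farthest to the right, most medians lie between 0 and 0.5, and the 3 orange points left of 0 are IL27RA, PTPN6 and CCND1.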

How the data were processed

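The authors counted reads per gene over exons (featureCounts 1.5.1, Sscrofa11.1, no strand option), per the file headers, and these deposited values are raw counts. For the aligner, nothing is given in the sources used here. Of 18 library columns, 12 matched the samples by number and 6 were not used. The authors' deposited comparison table gives a mean normalized signal, log2 fold changes, p-values and a statistic, which is a score. The submitters' processing notes name DESeq2. Gene names came from that table, then from a reference name table holding 14857 of 25880 IDs. No sequences were used here.

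Genes passing edgeR 4.0.16 filterByExpr were scaled by TMM and tested with the quasi-likelihood F test (glmQLFit, robust; R 4.3.3), DHCA minus sham, Benjamini-Hochberg adjusted over 14004 genes, threshold 0.05. CPM is TMM-scaled; 1 CPM is 1.50 to 13.7 counts. Intervals use the model's degrees of freedom. Correlations used log2 CPM (prior count 2). Alternatives included DESeq2 1.42.0 and limma 3.58.1. On simulated data with 14004 genes, edgeR recovered 45% of 2-fold and 90% of 4-fold changes and called 13 unchanged genes. Each gene was drawn independently there, with changes balanced up and down, so shifts shared by many genes of a library are lacking. These shares need not hold for the real libraries. Members, lists and left-out libraries were chosen with earlier results of these data known. Beside members, each list's genes named were those called, those without overlap and otherwise up to 3 with the smallest p. Some results that this rule takes are not reported here. Within groups, chi-square per degree of freedom was 8.50 to 126 between libraries, far above sampling noise.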

Additional observations from a re-analysis of the deposited data

How the results depend on the processing

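The 8 tested members kept a fold change above 0 in all 22 alternative fits, except BCL3 without Sham 4, with -0.060 (-0.060 to 0.43 over fits without 1 library, and up to 0.47 over all 22). SOCS3 was called with DESeq2 size factors, upper-quartile factors, no filter, 1 CPM in 6 libraries, and without mitochondrial and haemoglobin genes. Members called numbered 1 (0 to 1 over fits without 1 library), 4 by the DESeq2 Wald test, 3 by limma-voom with quality weights, and 0 at a threshold of 0.01, without Sham 1 and Sham 5, or without Sham 1, Sham 4 and Sham 5. SOCS3 had a log2 fold change of 2.67 to 3.65 over fits without 1 library, 3.08 without Sham 1 and Sham 5 (edgeR adjusted p = 0.122) and 2.79 without Sham 4 as well (0.304). Genes called numbered 26, 9 to 51 without 1 library, 179 by the DESeq2 Wald test, 207 by limma-voom, 12 without Sham 1 and Sham 5, 1 without Sham 4 as well, 6 at a threshold of 0.01 and 55 at 0.10. With the replicate block by title number, 8 genes and 0 members were called, SOCS3 had 3.17 (edgeR adjusted p = 0.0685) and CEBPD 2.10 (0.0465). Same-numbered libraries had correlations of their deviations between -0.39 and 0.34, where all sham and DHCA pairs ran from -0.61 to 0.58. The labels do not say whether the numbers pair the animals, and these few correlations cannot decide it. Signs turned for genes far from the threshold: CLCF1 (0.084 by limma-voom, -0.18 to 0.067 over fits without 1 library and 0.036 without DHCA 3, 0.089 without Sham 1 and Sham 5, 0.012 without Sham 4 as well), SOCS7 (0.015 by limma-voom, 0.10 without Sham 1, Sham 4 and Sham 5), PIAS4 (0.091 without Sham 1 and Sham 5, 0.041 without Sham 4 as well) and HSPB8 (-0.035 without Sham 4 to 0.17 without Sham 1, -0.0023 without DHCA 2). The cause was not tested. SOCS1 and the ligands with a row other than CLCF1 had too few counts to pass the filter.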

Other observations

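SOCS2, a feedback inhibitor of growth hormone signalling, has no row of its own in these tables. Its RefSeq position (chromosome 5, 89581081 to 89587424, Sscrofa11.1) lies inside a gene model that the authors' deposited table names CRADD, an adaptor of cell death signalling, and 2761 of the 5921 exon bases of that model lie within the SOCS2 position. Counts of the 2 genes are therefore joined in that row. The CRADD row ran from 15.4 to 28.0 CPM in sham and from 10.6 to 18.4 CPM in DHCA (log2 fold change -0.42, SE 0.19, edgeR adjusted p = 0.610). No value for SOCS2 itself was drawn from it.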
